A study of Mus musculus with 2 samples.

Results

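The genes described here are those of DNA replication and of the step from G1 into S phase of the cell cycle. They are 38 genes written as a list by name, of 29607 gene names carried by the array, and the rule for the list used no measured value. The study grew 661W, a mouse cell line used as a cone photoreceptor model, in DMEM/F12 medium without choline or with choline for 3 days, with 10% fetal bovine serum given for the cultures of both groups. The labels put 8.98 g/L beside the choline-sufficient medium without saying of what. Total RNA of 1 choline-deficient and 1 choline-sufficient sample was hybridised to 1 Agilent single-colour array each, and the design text speaks of RNA pooled over 4 dishes without giving the number per condition. The 661W line came from a retinal tumour of a mouse with SV40 large T antigen under a human IRBP promoter, and the cells of both groups carry that transgene. Large T antigen binds the retinoblastoma protein, which otherwise holds back the E2F factors that drive many of the genes described here.

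Before a cell copies its DNA, the origin recognition complex marks the start points and the loaders CDC6 and CDT1 place the MCM helicase there in G1. At the start of S phase CDC7 kinase, CDC45 and the GINS complex turn the loaded helicase on, and DNA polymerases with their clamp and clamp loader follow it. Cyclin E and E2F factors drive this switch, and E2F factors raise the transcription of the loaders, helicase subunits and nucleotide enzymes together, so this group is widely used as a readout of cells in late G1 and S phase.

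With 1 array per group, both on the same slide, there was no replicate, no test was possible and no p-value is given, and this limits the precision of every value. In bulk RNA, fewer cells in S phase and less RNA per cell cannot be told apart. A value of a gene is its signal over the 75th percentile of all non-control spots of that array, called relative signal here, averaged on the log2 scale over its probes. A difference is the log2 relative signal of the choline-deficient array minus that of the choline-sufficient array. The error after ± is the scanner software's estimate for the array measurement and does not cover the variation between cultures. Both arrays had 43020 non-control spots, of which 70.7% and 68.5% were well above background on the choline-deficient and choline-sufficient array. Of 12 cone markers 7 were measured on both arrays, and the defining genes Opn1sw, Cngb3 and Crx were well above background on neither. Of the 7 measured cone markers, 3 were 1.5-fold or more above in the choline-deficient sample and 0 below. Their summed relative signal was 1.05 on the choline-deficient and 0.98 on the choline-sufficient array, of which Rxrg gave 0.606 and 0.693. Of 11 measured fibroblast markers 9 stood 1.5-fold or more above in the choline-deficient sample, with a summed relative signal of 150.3 against 71.5, and Lum was well above background on neither array. For Müller glia and astrocyte markers, 5 of 9 were above and 1 below by that fold, with sums of 45.01 and 18.3, and Sox2 and Kcnj10 were above it on neither. Retinal ganglion cell markers had sums of 1.296 and 0.788 over 6 measured genes, 3 above and 2 below by 1.5-fold, and Pou4f2 and Nefl were above it on neither. The sums rest on few bright genes. Tubb3 gave 1.17 and 0.691 of the ganglion cell sums, and the 2 genes below were the dim Rbpms and Pou4f1. Thy1, one of the 3 above, was also dim, at 0.010 and 0.0037, and is counted among the fibroblast markers as well. Vim gave 31.6 and 15.1 of the Müller glia sums. Col1a2, with 62.3 and 7.31, and Fn1, with 61.0 and 59.9, gave most of the fibroblast sums. Of all measured genes 14.8% were above and 14.1% below by 1.5-fold. The part of these cell-type markers in the values below was not tested.

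All 38 genes were measured on both arrays, and 34 of them differed by less than 1.5-fold. Gins2, a subunit of the GINS complex, and Tk1, the salvage enzyme thymidine kinase, exceeded the choline-sufficient value by 1.5-fold or more, which makes 2 of 38 members against 14.8% of the 19816 measured genes. Gins1, another GINS subunit, and Fen1, the nuclease that trims Okazaki fragments, were at least 1.5-fold lower, again 2 of 38 against 14.1% of measured genes. No member was 2-fold apart in either direction, while 7.67% of measured genes were 2-fold or more above and 3.88% that far below. The median difference of the members was -0.09, beside -0.10 for all measured genes. The split of higher and lower members moved with the scaling, from 2 higher and 2 lower to 0 higher and 9 lower when arrays were scaled to their medians, and to 3 higher and 0 lower when scaled to spike-in probes. After cyclic loess 2 were higher and 0 lower, and after normexp 1 was higher and 2 lower. The median and spike-in scalings moved every gene by one constant, so the median of all measured genes went to -0.22 and 0.18, and that of the members to -0.21 and 0.18.

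**Figure D1:**
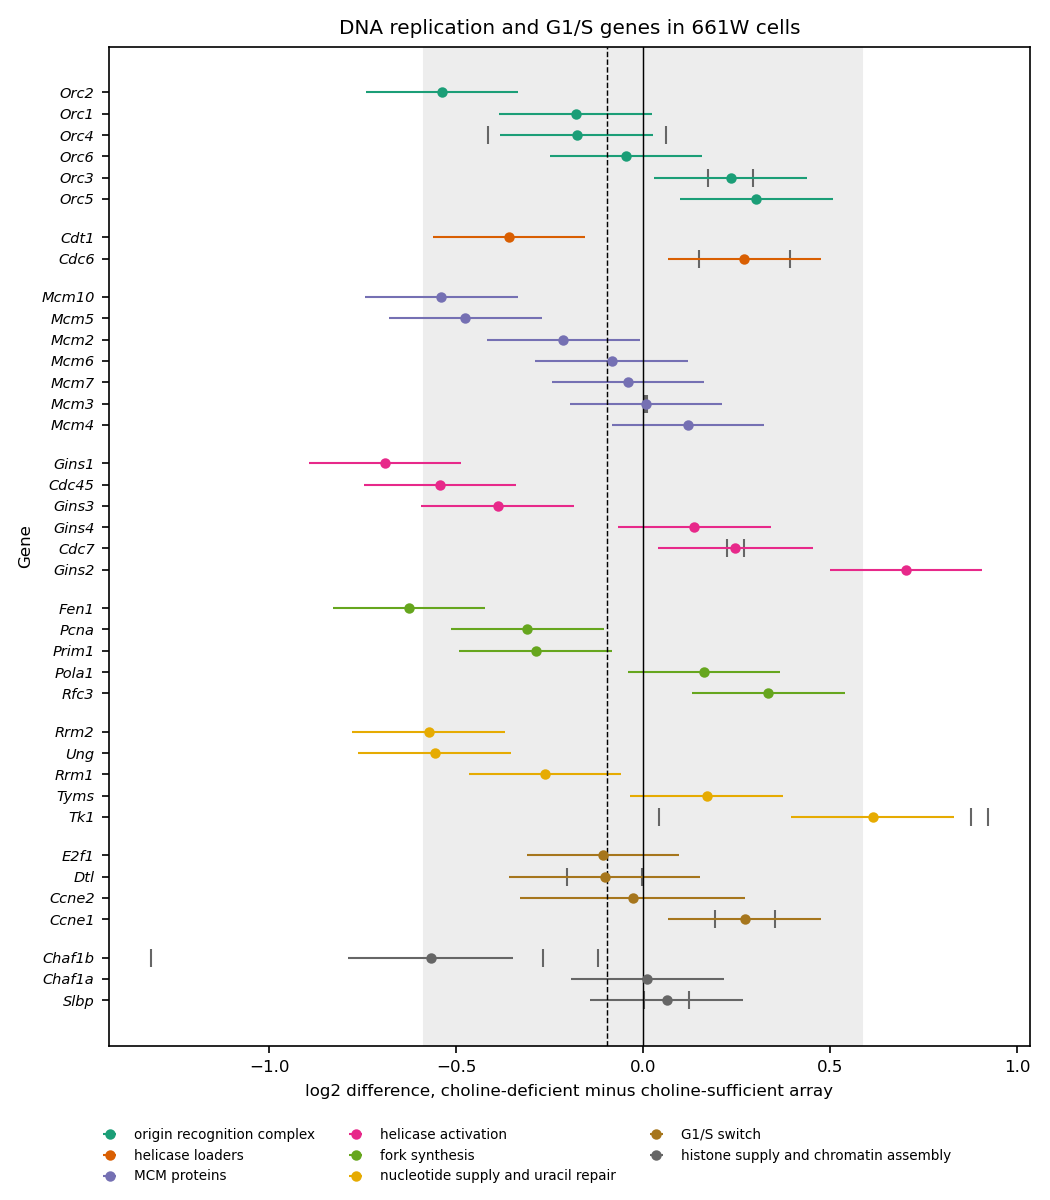
Log2 difference (choline-deficient minus choline-sufficient array) of each of the 38 genes, coloured by role. Points are gene values, horizontal bars the scanner software's error, grey ticks the single probes of genes with several, the shaded band differences under 1.5-fold, and the dashed line the median of all measured genes (-0.10). Points outside the band are Gins2 and Tk1 on the right and Gins1 and Fen1 on the left.

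Their differences ran from -0.69 to 0.70 with an SD of 0.35 over genes, where all measured genes had an SD of 0.71. The lists most like them, described below, had SDs of 0.41 (29 G2/M genes) and 0.46 (42 other replication genes). Median absolute differences of these lists were 0.20 and 0.25, beside 0.27 for the members and 0.36 for all measured genes. Of the members 89.5% lay within 1.5-fold, beside 71.1% of measured genes and 74.7% of the 6739 genes whose mean signal was at or above the 75th percentile. Among those brighter genes 9.02% lay 1.5-fold or more above and 16.2% as far below, with a median of -0.21 and an SD of 0.58. Of the 38 members 25 were above the 75th percentile on both arrays by their mean over probes. Dtl, Tk1, Orc3 and Ccne1 fell below it only through averaging with a dimmer probe. On a finer scale, 9 members were lower and 2 higher by more than 2 times the measurement error, against 22.6% and 19.4% of measured genes. These 9 were Gins1, Fen1, Rrm2, Chaf1b, Ung, Cdc45, Mcm10, Orc2 and Mcm5, so 7 genes lay between 2 times the error and 1.5-fold.

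**Figure D2:**
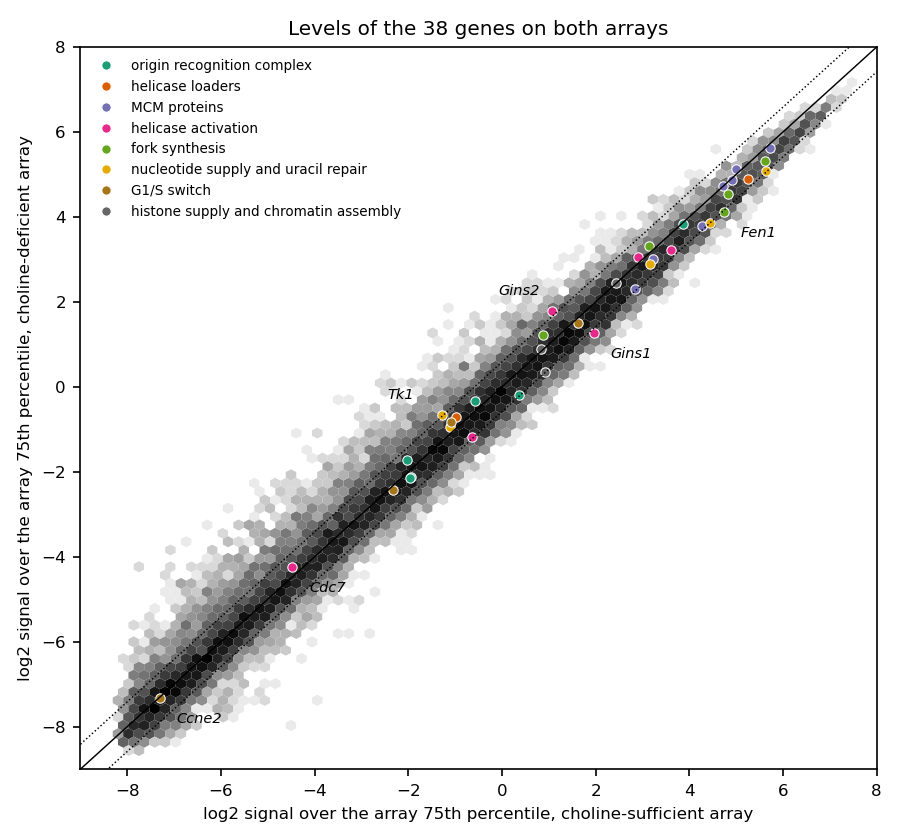
Log2 relative signal of the 38 genes (coloured by role) on the choline-sufficient array (horizontal axis) and the choline-deficient array (vertical axis), over all 19816 measured genes (grey hexagons, darker for more genes on a log scale). The solid line marks equal values and the dotted lines 1.5-fold. Of the 38 points 34 lie between the dotted lines.

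The probes that the values rest on were designed sequences of 60 bases, and 28 of the 38 genes had 1 probe. Sequences are shown for the genes past 1.5-fold and for the genes whose probes bear on how far a value can be read. Only the first 30 bases from the 5′ end are printed, and positions are those of the whole probe on mouse build mm9 as the array files give them. Of the 50 member probes 45 carried an accession found in the RefSeq table, each with the same symbol. Whether a probe lies in coding sequence or UTR was not analysed here, because the annotation used is on another build.
Gins2 probe (NM_178856, chr8:123112627-123112686): ggccattaacctgaaacagagacagaagtg
Gins1 probe (NM_027014, chr2:150756868-150756927): acaaaaccaagaactcttggctaggagcat
Fen1 probe (NM_007999, chr19:10273675-10273734): ggcaatcaattgaattgaggttttgggaga
Tk1 probe for the RefSeq transcript (NM_009387, chr11:117676845-117676904): cctcagctcttagtgagccacttttcttgt
Tk1 probe for an Ensembl transcript (ENSMUST00000153298.7, chr11:117683390-117683449): ttgggtgtggccgtcattggcatcgatgag
Tk1 probe for another Ensembl transcript (ENSMUST00000129852.1, chr11:117685654-117685713): ttccactggacatttccctctgagcccaag
Chaf1b probe for the RefSeq transcript (NM_028083, chr16:93906269-93906329): tatgcacttgcgtcagaggaggcaaggcca
Chaf1b probe overlapping it (NM_028083, chr16:93906219-93906278): atgcccaaaacctggcccctgatgactctt
Chaf1b probe for an Ensembl transcript (ENSMUST00000120586.1, chr16:93884550-93884609): cggaaccgtacactggtggaagtctctcta

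The Mcm3 gene had 2 overlapping probes, whose shared bases make them no independent check of each other. Its RefSeq probe and a probe made from a cDNA clone share 43 bases with 1 difference, A31G, counted from 1 at the 5′ end of the RefSeq probe, with the RefSeq base first. The first 30 shared bases are shown with that base in capitals.
Mcm3 RefSeq probe: aagctttctttgcAattagactagtatgta
Mcm3 cDNA clone probe: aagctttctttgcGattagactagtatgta
The differences of these probes were 0.01 and 0.005, so both placed Mcm3 at equal relative signal on the arrays. Over the 10 genes with several probes, the probes had opposite signs in 1, Orc4, and lay more than 1 apart on the log2 scale in 1, Chaf1b. The probes of Orc1, Orc2 and Rfc3 each cover 908, 1764 and 1799 bases of mm9 with 60 bases, a longer stretch of genome than the probe itself. The listed positions of a Ccne1 and of the Pcna probe cover 24 and 33 bases, fewer than the probe itself.

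The origin recognition complex, which binds DNA where replication will begin, had no subunit past 1.5-fold. Orc1, the gene of its largest subunit, had a relative signal of 0.231 on the choline-deficient and 0.262 on the choline-sufficient array. Orc2 had 0.881 and 1.28, a difference of -0.54 ± 0.20, the largest within the complex and 1.45-fold lower. Orc3 and Orc5 pointed the other way, at 0.789 against 0.671 and 0.304 against 0.247. The Orc4 values were 0.226 and 0.256, from probes at -0.41 and 0.06, so its sign rests on which probe is read. Orc6, for the smallest subunit, had 14.2 and 14.6, and its sign turned under 3 of 10 alternatives. The complex thus held 2 subunits above and 4 below equal signal, with a median of -0.11.

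The helicase loaders lay on opposite sides of equal signal. Cdt1, whose product is destroyed once S phase starts, had 29.6 on the choline-deficient and 38.01 on the choline-sufficient array, a difference of -0.36 ± 0.20. Cdc6, the ATPase that works beside it, had 0.608 and 0.504, at 0.27 ± 0.20, with its probes at 0.15 and 0.39. Both differences were smaller than 2 times their error.

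MCM2 to MCM7 form the ring that unwinds DNA, and none of their genes was past 1.5-fold. Mcm3 had 26.6 and 26.5, Mcm4 had 34.9 and 32.1, Mcm6 had 49.6 and 52.6, and Mcm7 had 29.2 and 29.99 on the choline-deficient and choline-sufficient array. These 4 genes lay between -0.08 and 0.12, inside the measurement error, and the signs of Mcm3, Mcm6 and Mcm7 turned under 1, 3 and 3 of the 10 alternatives. Mcm2 had 8.11 and 9.41, at -0.21 ± 0.20. Mcm5 stood lowest in the ring, with 13.8 and 19.2 and a difference of -0.48 ± 0.20. Over the 6 ring genes the median was -0.06 and the SD 0.21. Mcm4 and Mcm5 thus marked the ends of the ring's range. Mcm10, which helps activate the loaded helicase and is no part of the ring, had 4.94 and 7.18, a difference of -0.54 ± 0.20.

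The GINS complex, which joins the MCM ring in the active helicase, has 4 subunits, and their genes lay on both sides. Gins2 had a relative signal of 3.44 on the choline-deficient and 2.11 on the choline-sufficient array, a difference of 0.70 ± 0.20 and 1.63-fold higher. Gins1 had 2.42 and 3.91, a difference of -0.69 ± 0.20 and 1.61-fold lower. Each rests on 1 probe. Gins3 had 9.32 and 12.2, at -0.39 ± 0.20, and Gins4 had 8.28 and 7.53, at 0.14 ± 0.20. The subunit genes therefore covered the full range of all 38 members, from the lowest to the highest. Gins2 was under 1.5-fold only with median scaling, at 0.58, among 10 alternatives. Gins1 was under it in 2 of the 10, at -0.42 with spike-in scaling and -0.54 after cyclic loess. With 1 probe each, filters on dim probes and ways to combine probes could not move either value.

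The partners of GINS at origin firing were Cdc45 and Cdc7. Cdc45, which completes the active helicase, had 0.443 and 0.646, a difference of -0.54 ± 0.20. The kinase gene Cdc7 was dim, with 0.053 and 0.045, and its probes were at 0.22 and 0.27. Its difference of 0.25 ± 0.21 turned to -0.02 after normexp background correction.

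Genes of the moving fork were spread around equal signal. Pcna, the sliding clamp that holds polymerases on DNA, had 39.7 on the choline-deficient and 49.2 on the choline-sufficient array, at -0.31 ± 0.20. Rfc3, a subunit of the loader that puts the clamp on DNA, had 2.33 and 1.85, at 0.33 ± 0.20. Prim1, the primase subunit that makes the RNA primer, had 23.2 and 28.4, and Pola1, the polymerase subunit that extends it, had 9.90 and 8.85. Primase and polymerase alpha work as a single enzyme, and their genes lay at -0.29 ± 0.20 and 0.16 ± 0.20. Fen1 had 17.4 and 26.9, a difference of -0.63 ± 0.20 and 1.54-fold lower. Across the alternatives Fen1 ran from -0.75 with median scaling to -0.36 with spike-in scaling, and it stayed at least 1.5-fold lower in 7 of 10. Fen1 has 1 probe, so filters on dim probes and ways to combine probes could not move its value. It was under 1.5-fold with spike-in scaling and, at -0.37 each, after the quantile and cyclic loess settings.

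Among the enzymes of nucleotide supply and uracil repair, Tk1 and Tyms were above equal signal and Rrm1, Rrm2 and Ung below it. Tk1 had a mean relative signal of 0.629 on the choline-deficient and 0.411 on the choline-sufficient array, at 0.61 ± 0.22 and 1.53-fold higher. Its probe for the RefSeq transcript had a difference of 0.92, and that for an Ensembl transcript 0.88, which is 1.89-fold and 1.84-fold higher. The third probe, dim on both arrays with processed signals of 14.5 and 11.2, was at 0.04 and lowered the mean. Tk1 was under 1.5-fold in 2 of 10 alternatives and 1.89-fold higher with the brightest probe alone. Rrm2, the regulated subunit of ribonucleotide reductase, had 14.6 and 21.7, at -0.57 ± 0.20 and 1.49-fold lower. Rrm1, the large subunit of the same enzyme, had 7.47 and 8.96, at -0.26 ± 0.20. Tyms, the thymidylate synthase of the de novo route, had 0.520 and 0.462, at 0.17 ± 0.20. Ung, which removes uracil from DNA, had 33.6 and 49.4, at -0.56 ± 0.20.

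The genes of the G1/S switch itself were nearly level. E2f1, the activating E2F factor that controls many of these genes, had 2.85 and 3.07, at -0.11 ± 0.20. Ccne1, a cyclin E gene, had 0.566 and 0.469, at 0.27 ± 0.20, with its probes at 0.19 and 0.35. The other cyclin E gene, Ccne2, was dim, with processed signals of 9.97 and 8.09 and a relative signal of 0.0062 and 0.0063, at -0.03 ± 0.30. Dtl, whose product marks CDT1 for destruction in S phase, had a mean of 0.186 and 0.200, at -0.10 ± 0.25. Its RefSeq probe was bright, with a relative signal of 4.99 and 5.00, at -0.004. The other Dtl probe, for an Ensembl transcript, was dim, with processed signals of 11.2 and 10.2, at -0.20, and lowered the mean. The signs of E2f1 and Dtl turned under 2 of 10 alternatives each, and that of Ccne2 under 2 of 9.

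Genes that supply new chromatin behind the fork were level apart from Chaf1b. Slbp, which binds histone messenger RNA in S phase, had 1.85 and 1.77, at 0.06 ± 0.20. Chaf1a, the large subunit of chromatin assembly factor 1, had 5.42 and 5.38, at 0.01 ± 0.20. Chaf1b, the middle subunit, had 1.27 and 1.88, a mean difference of -0.57 ± 0.22 from probes at -0.12, -0.27 and -1.32. The last of these, for an Ensembl transcript, had processed signals of 9.17 and 18.2, so its larger difference rests on a dim spot. With the brightest probe alone Chaf1b was at -0.12, 1.09-fold lower.

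E2F factors bind short words in the promoters of many of these genes, so their promoter windows were searched. The windows are RefSeq's on GRCm38.p6, from 250 bases before to 50 after a start site, and 33 of the 38 genes matched, all but Gins1, Gins2, Gins4, Mcm4 and Ccne2. The words searched on both strands were TTTGGCGC, TTTCCCGC, TTTGCCGC and TTTCGCGC. At least 1 of them was in the windows of 12 of 33 members (36.4%), or in 30.8% of 39 member windows, beside 2.26% of all 32851 windows. CCAAT was in 59.0% of member windows and 37.4% of all, and TTTGAA, the core of the cell cycle homology region, in 15.4% and 17.9%. The 12 members with such an E2F word had a median difference of -0.06 and ran from -0.48 to 0.33, with none past 1.5-fold. The 21 members without one had a median of -0.21 and ran from -0.63 to 0.61, with 1 at least 1.5-fold higher, Tk1, and 1 lower, Fen1. Gins1 and Gins2, the other members past 1.5-fold, had no window and are in neither group. The split therefore cannot tell whether an E2F word goes with differences of that size. A match describes letters only, and no binding was measured. To show where the words lie, stretches of 60 bases upstream of the start are given for members of several roles, with the words in capitals.
Mcm6 (chr1:128359719-128359778, minus strand): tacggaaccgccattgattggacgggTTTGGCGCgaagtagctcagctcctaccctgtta
Mcm5 (chr8:75109334-75109393, plus strand): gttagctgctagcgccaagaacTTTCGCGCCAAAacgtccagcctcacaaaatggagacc
Orc1 (chr4:108579394-108579453, plus strand): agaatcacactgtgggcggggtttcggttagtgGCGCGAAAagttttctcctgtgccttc
Cdc6 (chr11:98907987-98908046, plus strand): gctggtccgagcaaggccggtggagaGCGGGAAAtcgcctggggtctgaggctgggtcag
Rfc3 (chr5:151651209-151651268, minus strand): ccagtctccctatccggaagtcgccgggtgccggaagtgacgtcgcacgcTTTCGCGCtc
Dtl (chr1:191575545-191575604, minus strand): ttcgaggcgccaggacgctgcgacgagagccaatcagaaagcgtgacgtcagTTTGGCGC
Of these 6 genes Mcm5, with 2 overlapping words in its stretch, lay beyond 2 times its error, and the other 5 did not. Mcm6, with 3 words in its window, was at -0.08, and Mcm3 and Rfc3, with 2 each, were at 0.01 and 0.33. A link between the number of words and the difference was not tested.

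A further list of 42 replication genes, with polymerases, clamp loaders and fork proteins, was measured in full. There were 4 (9.52%) at least 1.5-fold higher and 5 (11.9%) lower, both shares below the 14.8% and 14.1% of all measured genes, with a median of 0.03. The 6 genes furthest apart are given as a description. Chtf18, of the alternative clamp loader, had 5.34 on the choline-deficient and 2.56 on the choline-sufficient array, 2.09-fold higher. Pold1, the catalytic subunit of polymerase delta, had 6.07 and 3.09, 1.96-fold higher. On the other side, the small subunits of polymerase epsilon, Pole3 and Pole4, were 1.77-fold and 1.85-fold lower, at 4.45 against 7.86 and 2.23 against 4.13. Rpa3, the smallest subunit of the single-strand binding protein RPA, was 1.84-fold lower, at 7.35 and 13.5. Recql4, a helicase needed at initiation, was 1.97-fold lower, at 4.94 and 9.76. With spike-in scaling 8 were at least 1.5-fold higher and 3 lower.

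Genes that set the G1/S decision, a list of cyclins, kinases, inhibitors and E2F and RB factors, had shares past 1.5-fold close to those of all genes. Of 36 measured members 5 (13.9%) were at least 1.5-fold higher, all of them at least 2-fold, and 6 (16.7%) lower, beside 14.8% and 14.1% of all measured genes. At 2-fold, 5 (13.9%) were higher and 0 lower, beside 7.67% and 3.88% of all measured genes. Ccnd1, the cyclin D1 gene that answers growth factors, had 3.13 on the choline-deficient and 0.871 on the choline-sufficient array, 3.59-fold higher at 1.85 ± 0.20. Its kinase partner gene Cdk6 had 0.078 and 0.029, at 1.44 ± 0.21. The inhibitor genes Cdkn2b and Cdkn2a pointed the same way, at 1.24 and 0.437 and at 9.95 and 4.80, or 2.84-fold and 2.07-fold higher. Other cyclin D, kinase and inhibitor genes of the list did not follow. Cdk4 had 16.4 and 22.7, at -0.47 ± 0.20, and Ccnd2 had 1.93 and 3.15, 1.63-fold lower. The inhibitor genes Cdkn2c and Cdkn2d were under 1.5-fold, at 0.31 ± 0.20 and 0.07 ± 0.20. E2f5, an E2F factor of the repressor class, had 0.319 and 0.145, 2.20-fold higher. Cks1b, a small partner of cyclin-dependent kinases, had 23.8 and 43.3, 1.81-fold lower. Cdk6 was at 0.55, under 1.5-fold, after normexp. Over the 36 genes the median was -0.01 and the SD 0.67, beside 0.71 for all measured genes and 0.35 for the 38 members.

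**Figure D3:**
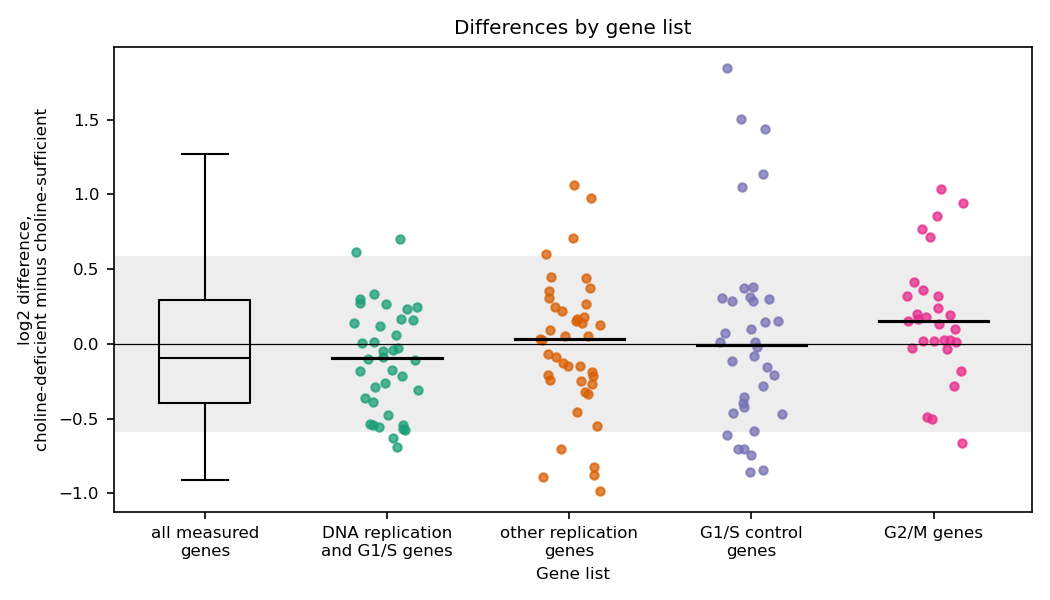
Log2 difference (vertical axis) of single genes (points) by gene list, with list medians as black lines. The box shows the quartiles of all measured genes, its whiskers the central 90%, and the shaded band differences under 1.5-fold. The DNA replication and G1/S genes lie between -0.69 and 0.70, and the G1/S control list reaches 1.85.

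Of 29 measured G2/M genes 22 were above equal signal, with a median of 0.15. Of the 38 members 15 were above it and 23 (60.5%) below, and of all measured genes 42.6% were above and 57.4% below, so the members' share was near that of all genes. At 1.5-fold, 5 of the 29 G2/M genes were higher and 1 lower, beside 14.8% and 14.1% of all measured genes. Mki67, a proliferation marker, had 12.6 on the choline-deficient and 6.97 on the choline-sufficient array, 1.81-fold higher. Top2a and the member Pcna, also used as such markers, were lower by less than 1.5-fold, at -0.18 ± 0.20 and -0.31 ± 0.20. Cenpe and Kif23, genes of mitotic motor proteins, were 1.70-fold and 1.64-fold higher. With the other genes that the naming rule gives, Ccnb2 was at 0.94 ± 0.20, Cenpf at 1.03 ± 0.21 and Nek2 at -0.66 ± 0.20. After normexp Cenpf was at 0.29 and Kif23 at 0.38, both under 1.5-fold. The G2/M median was 0.03 with median scaling and 0.42 with spike-in scaling, and under each of the 10 alternatives it was above that of the members. Median scaling, spike-in scaling and the value table shift both lists alike and could not change this order. Dropping the filter on dim probes and taking the median of probes left both medians as reported. The G2/M and member medians were 0.24 and -0.03 after the quantile setting, 0.32 and 0.03 after cyclic loess, and 0.13 and -0.11 after normexp. Whether the lists differ beyond the variation between cultures could not be tested with 1 array per group.

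**Figure D4:**
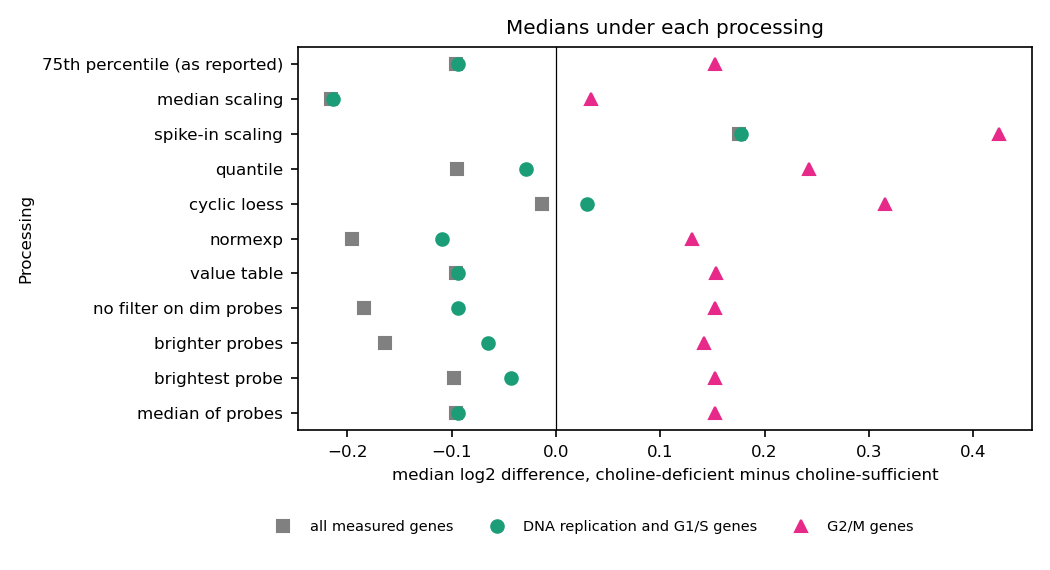
Median log2 difference (horizontal axis) of all measured genes (squares), the DNA replication and G1/S genes (circles) and G2/M genes (triangles) under the reported scaling and 10 alternatives (rows). The circles stay within 0.10 of the squares throughout, and the triangles lie to their right. Median scaling, spike-in scaling and the value table shift all symbols alike, so the spacing in those rows is fixed.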

How the data were processed

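Groups were taken from the treatment in the labels. Per the submitters' processing notes, the arrays were read out by Agilent Feature Extraction, version 12.1.1.1. The deposited files give an intensity per spot, background-subtracted and detrended within the array and not normalized between arrays, per the file headers. The deposited value table is a linear ratio: each array's processed signal was divided by 1 number (1609 and 1280), without centring genes. Its medians were 0.0358 and 0.0337. These numbers lie within rounding of the 75th percentiles of processed signal, so differences hardly move.

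Values here are log2 processed signal minus the array's 75th percentile. Control spots and outlier spots (92 and 86) were left out, repeated spots averaged, and a probe was measured when well above background and not saturated on both arrays (26461 probes). A gene's value is the mean of its measured probes, and its error the mean of theirs. Over 268 probes with at least 8 of 10 usable spots, spots of a probe differed by a median SD of 0.05 in the log2 difference. Counts use 1.5-fold. The members and lists were chosen with earlier results of these data known. The naming rule gives every member, and of the 3 other lists the 6 genes with the largest differences past 1.5-fold. Further genes of these lists are given only beside them for comparison. Alternatives were the median, spike-in, quantile, cyclic loess and normexp (offset 50, limma 3.58.1) settings, the value table, other filters on dim probes, other ways to combine probes, larger and smaller folds, and differences above 2 errors. Python 3.11.15, numpy 2.4.6, pandas 2.3.3 and R 4.3.3 were used, and the scripts were tested on simulated data.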

Additional observations from a re-analysis of the deposited data

How the results depend on the processing

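With 1 array per group no replicate could be left out. Over the 56 genes that the naming rule gives, 455 values moved by less than the measurement error across the alternatives and 98 by more. Of the differences past 1.5-fold, 0 changed sign. Median scaling, spike-in scaling and the value table move all genes by a constant smaller than 1.5-fold. They could therefore not reverse such a sign. Of those 98 values, 55 came from spike-in scaling, 17 from cyclic loess and 13 from the quantile setting. Many of the 455 could not have moved by more. Median scaling shifts all genes by one constant below the error, and the value table has nearly the reported scaling. Filters on dim probes and ways to combine probes cannot change the value of a gene with 1 probe. The total of 455 is therefore no measure of stability. Members at least 1.5-fold higher numbered 0 with median scaling, 1 after normexp and 0 at 2-fold, and 3 with spike-in scaling, against 2. Members at least 1.5-fold lower numbered 9 with median scaling, 0 with spike-in scaling, 0 after cyclic loess, 0 at 2-fold, 11 at a smaller fold, the lowest size tried, and 9 by a size over 2 errors, against 2. Their median was 0.18 with spike-in scaling, and that of G2/M genes 0.42. Other replication genes counted as higher numbered 8 with spike-in scaling, 2 after normexp, 1 at 2-fold and 8 at the smaller fold, and those counted as lower 3, with 0 at 2-fold and 8 at the smaller fold, the 3 being with spike-in scaling. G1/S control genes counted as lower numbered 1 with spike-in scaling, 2 after cyclic loess, 0 at 2-fold, 12 at the smaller fold and 10 by a size over 2 errors. The cause of the shifts after normexp and cyclic loess was not tested. Other counts stayed within 1.5 times the main count. Signal over background limits Ccne2, Cdc7 and the dim probes of Tk1, Chaf1b and Dtl.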
